A study of Mus musculus with 4 samples.

Results

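The initiation zones described here are those in the first 10 Mb of mouse chromosomes 1 to 19, the end of each chromosome that lies next to the centromere. A zone was a member if its midpoint lay less than 10 Mb from the smallest first position that either zone list gave for its chromosome. By this rule 4030 of the 55863 listed zones were members, 2160 of 29838 in set 1 and 1870 of 26025 in set 2. The rule used position only, so the number, width, score and agreement of the zones were free to differ.

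Replication starts in zones from which forks move apart in both directions. On each side of a zone DNA polymerase ε copies the leading strand, and so the strand that carries its products switches at the zone. Mouse chromosomes have their centromere at the end with the low coordinates, where long satellite repeats form heterochromatin that is packed densely and copied late in S phase. On chromosomes 1 to 19 neither list has a zone before position 3001000. Whether reads could be placed before that position was not analysed, so the lists cannot tell whether replication starts there. The windows begin at the first listed zone and do not cover the stretch before it.

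The data came from E14tg2a, a male mouse embryonic stem cell line. The parent group (2 samples) carried Tet-OsTIR1 at Rosa26, an auxin receptor that doxycycline switches on, and mAID-RNaseh2a, a degron-tagged subunit of RNase H2, which cuts ribonucleotides out of DNA. Both alterations are marked (bi) in the genotypes, as is Pole1-M630F, the polymerase ε mutation that the second group (2 samples) carried in addition. The mutant enzyme leaves ribonucleotides in the strand it makes, and alkali cleaves DNA at them. All 4 samples were kept with doxycycline and auxinole for 24 h and then with doxycycline and IAA for 12 h, so the treatment meant to deplete RNaseh2a was common to both groups. The labels do not say how many clones the mutant line rests on or whether replicates were separate cultures. No values per sample were analysed here, so parent and mutant were not compared. The lists, named set 1 and set 2 like the libraries of replicates 1 and 2, list for each zone where it begins and ends, on a 1 kb grid in GRCm39, together with a score. The score is the authors' own and has no stated unit, so it was used to rank zones within a list. Read depth is unknown, and intervals below describe the spread over chromosomes, not counting error.

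The 19 windows started between positions 3001000 and 3118000, in each case at a zone of set 1 or set 2 by construction. The first zone of set 1 and that of set 2 overlapped on 9 of 19 chromosomes and their first positions differed by a median of 23 kb. At the other edge, 7 zones of set 1 and 9 of set 2 spanned the 10 Mb limit and were placed by their midpoints. Just inside the limit, from 9 to 10 Mb, there were 12.2 zones per Mb in set 1 and 9.53 in set 2, with median widths of 19 kb and 22 kb. Just outside it, from 10 to 11 Mb, there were 12.0 and 9.79 zones per Mb, with median widths of 15 kb and 18 kb.

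The first 10 Mb next to the centromere held initiation zones at close to the density of the rest of the chromosome. Set 1 had 11.4 zones per Mb ± 1.01 (SD, n = 19 chromosomes) there, and set 2 had 9.84 ± 0.647. In the interior, defined as everything at least 10 Mb from both ends of the mapped chromosome, the densities were 11.6 ± 0.257 and 10.1 ± 0.185. The proximal density of set 1 ran from 10.2 on chromosomes 4 and 7 over a median of 11.2 to 13.6 on chromosome 14. That of set 2 ran from 8.70 on chromosome 15 over a median of 9.90 to 11 on chromosome 2. Averaged over both sets, the proximal minus interior difference was -0.25 zones per Mb (95% interval -0.55 to 0.05), with lower values on 14 of 19 chromosomes. The difference did not pass a sign-flip permutation test, two-sided and over the 19 chromosomes (p = 0.0920, Benjamini-Hochberg adjusted p = 0.306 over 14 comparisons). Chromosomes in a list come from the same libraries, so such p-values measure the spread over chromosomes and not over cultures.

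The zones themselves had nearly the same median widths as those of the interior. The median width averaged 20.2 kb ± 3.87 (SD, n = 19) in set 1 and 22.7 kb ± 3.58 in set 2, against 18.6 kb ± 1.26 and 22.7 kb ± 1.70 in the interior. The difference for the mean of the sets was 0.842 kb (95% interval -0.282 to 1.97, sign-flip permutation p = 0.141, adjusted p = 0.329). With the mean width in place of the median it was 1.37 kb and did not pass the test either (sign-flip permutation, adjusted p = 0.0605). Pooled over chromosomes, 50% of the set 1 members were between 5 kb and 43 kb wide and 50% of the set 2 members between 7 kb and 55 kb. Zones of a single 1 kb bin made up 232 members of set 1 (10.7%, against 11.4% of all zones on chromosomes 1 to 19) and 175 of set 2 (9.36%, against 10.2%). Zones wider than 40 kb made up 581 members of set 1 (26.9%, against 26.3% of all zones) and 643 of set 2 (34.4%, against 33.2%). Zones wider than 100 kb made up 2.69% of set 1 members and 4.92% of set 2 members. The interior shares were 2.27% and 3.98%, and this difference was not tested. Between neighbouring zones lay a median of 49 kb (set 1) and 59 kb (set 2), close to the 48 kb and 57 kb of the interior.

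Zones covered 32.3% ± 1.95 of the proximal 10 Mb in set 1 and 33.3% ± 2.03 in set 2. The interior values were 31.9% ± 0.976 and 32.8% ± 0.834. The difference was 0.472 percentage points (95% interval -0.277 to 1.22) with higher proximal values on 13 of 19 chromosomes, and it did not pass the sign-flip permutation test (p = 0.2003, adjusted p = 0.401). Chromosome 7 stood lowest in both sets, at 26.95% and 27.86%. The highest values were 34.95% on chromosome 15 in set 1 and 37.2% on chromosome 9 in set 2. Set against the interior windows of 10 Mb on its own chromosome, the proximal window was above all of them in covered length on chromosomes 4, 11, 15, 16 and 19 and below all of them on none. It was below all of them in zone density on chromosomes 15 and 18 and above all of them on none. On chromosome 15 the proximal window thus held few zones per Mb (9.55, mean of the sets) that together covered 34.5% of it. Chromosome 19 offers 3 interior windows and chromosome 4 has 13, so these positions are descriptions only.

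**Figure D1:**
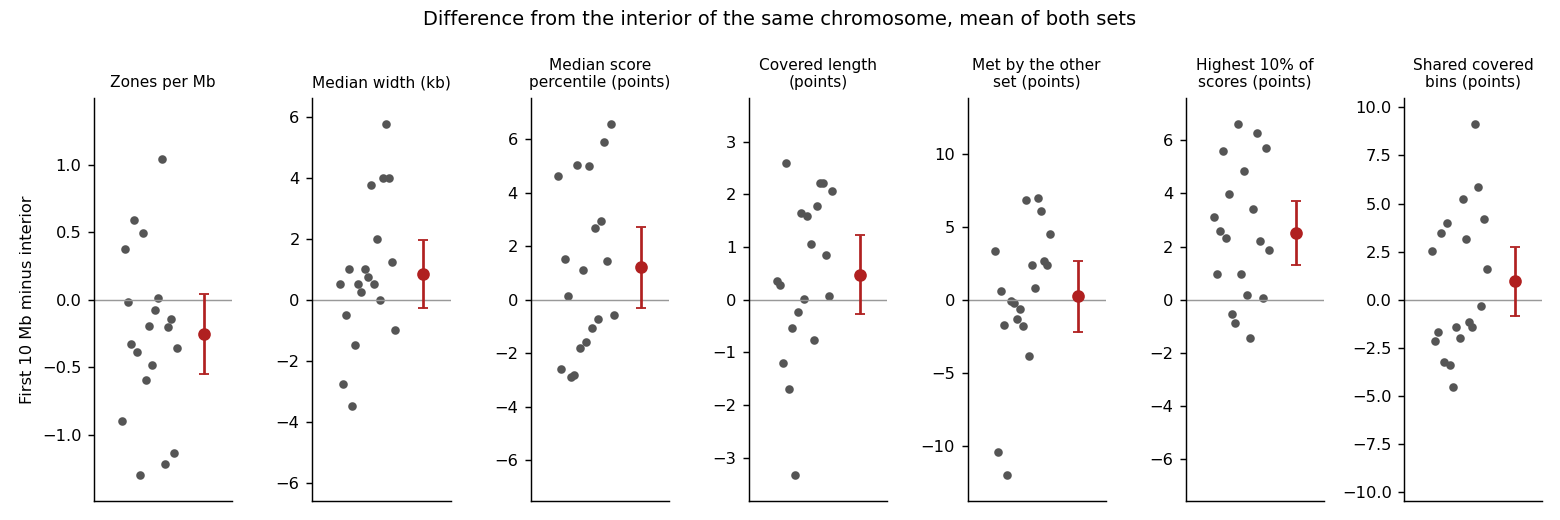
Each panel shows, for 19 chromosomes (grey points), the value in the first 10 Mb minus the value in the interior of the same chromosome, averaged over both sets, in the unit named above the panel; the red point and bar give the mean and its 95% interval. The interval lies above 0 for the share of zones among the highest 10% of scores (1.31 to 3.72 points) and spans 0 in the other 6 panels.

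High-scoring zones were more frequent beside the centromere. Of the members, 249 of set 1 (11.5%) and 245 of set 2 (13.1%) were among the highest 10% of scores of their own set, against 10% of all zones on chromosomes 1 to 19 in each. As means over chromosomes the shares were 11.6% ± 2.65 (SD, n = 19) in set 1 and 13.1% ± 2.88 in set 2, against 9.94% ± 1.10 and 9.80% ± 0.909 in the interior. The difference was 2.52 percentage points (95% interval 1.31 to 3.72) and was above 0 on 16 of 19 chromosomes. It passed the test (two-sided sign-flip permutation p = 0.00034, adjusted p = 0.00476), with an SD of 2.50 points over chromosomes. This measure, like the others tested, was chosen with earlier results of these data known. In the same sign-flip permutation test the call held with set 2 alone, at 3.35 points and an adjusted p = 0.00126, and was lost with set 1 alone, at 1.68 points and an adjusted p = 0.122. It was also lost with windows of 20 Mb, at 1.07 points and an adjusted p = 0.169, and with the highest 20% of scores in place of 10%, a setting added after the data were seen, at 2.36 points and an adjusted p = 0.0991 in the sign-flip permutation test.

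Chromosome by chromosome, the share in set 1 ran from 6.86% on chromosome 7 over a median of 12.5% to 15.9% on chromosome 6. In set 2 it ran from 8% on chromosome 8 over a median of 13.4% to 19.4% on chromosome 9. For the mean of the sets, the share was above all interior 10 Mb windows of its own chromosome on chromosomes 4, 9, 15 and 18. It was below all of them on none and above their median on 17 of 19 chromosomes. Chromosomes differ in their number of interior windows, so these positions too are descriptions only and were not tested. The proximal and interior values overlapped in both sets. The difference between them was largest on chromosome 9 and lowest on chromosome 13, for the mean of the sets at 6.60 and -1.43 points. On chromosome 13 the proximal shares were 8.26% in set 1 and 11.8% in set 2, and the interior shares 11.9% and 11.1%. Across the 19 chromosomes the differences of set 1 and set 2 had a Pearson correlation of 0.535, a description of paired windows that share their sequence. Counted per length, there were 1.31 such zones per Mb in set 1 and 1.29 in set 2, against 1.16 and 0.999 in the interior. As a mean over chromosomes and sets this difference was 0.228 zones per Mb (sign-flip permutation, adjusted p = 0.0126), also a measure added after the data were seen. Their median widths were 74 kb and 83 kb, against 77 kb and 87 kb in the interior; the high-scoring members were slightly narrower by this measure, a difference that was not tested. Their score per kb had a median of 1.13 in set 1 and 1.25 in set 2, against 1.09 and 1.22.

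**Figure D2:**
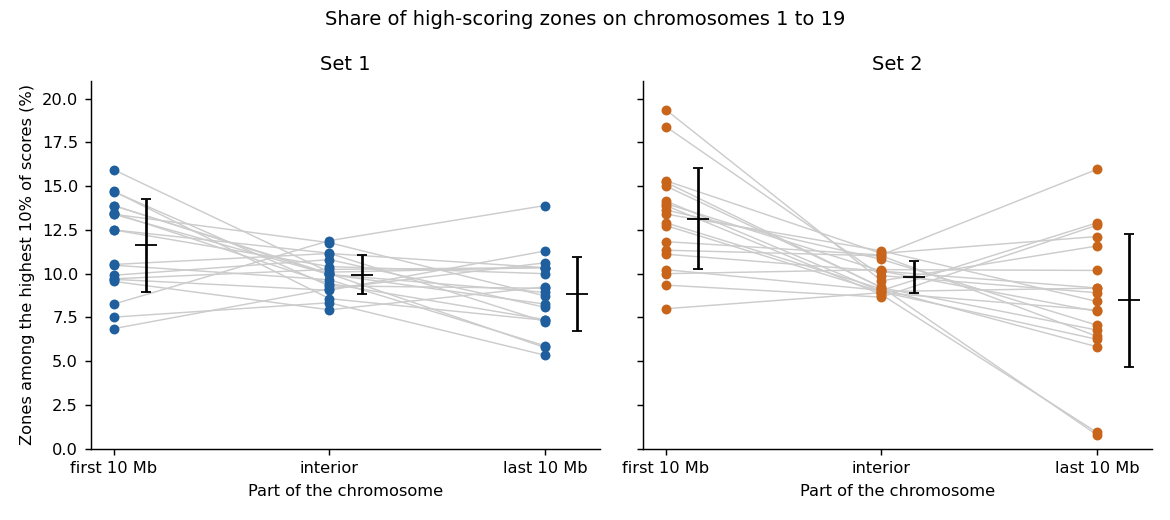
Points give the percentage of zones among the highest 10% of scores of their set in the first 10 Mb, the interior and the last 10 Mb of each of 19 chromosomes, with grey lines joining a chromosome and black bars showing the mean and SD. The mean falls from 11.6% over 9.94% to 8.85% in set 1 and from 13.1% over 9.80% to 8.47% in set 2, with overlapping points.

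The median score lay near that of the interior. The median member ranked at percentile 51.7 ± 4.36 (SD, n = 19) among all set 1 zones and 50.6 ± 4.81 among all set 2 zones, against 49.9 ± 1.44 and 49.9 ± 1.62 in the interior. The difference of 1.20 points (95% interval -0.296 to 2.70) did not pass the sign-flip permutation test (adjusted p = 0.306), while the mean percentile in place of the median did, at 1.52 points and an adjusted p = 0.00924. The authors' scores of the members had a median of 7.67 in set 1 and 8.997 in set 2, and 90% of members lay below 64.3 and 86.9. In the interior the medians were 7.15 and 8.42, and 90% of zones lay below 59.1 and 74.8.

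The opposite chromosome end was the most alike region to compare, since both are 10 Mb windows at an end. The last 10 Mb held 11.003 zones per Mb ± 0.707 (mean of the sets, SD over 19 chromosomes), against 10.6 ± 0.641 in the first 10 Mb, and 32.6% ± 1.98 of it was covered, against 32.8% ± 1.80. The difference in density was -0.40 zones per Mb (95% interval -0.85 to 0.06; sign-flip permutation p = 0.0846, adjusted p = 0.306). Zones among the highest 10% of scores made up 12.4% ± 2.43 of the zones at the centromere end and 8.66% ± 2.71 at the other end. That difference of 3.72 points (95% interval 1.70 to 5.74) was above 0 on 16 of 19 chromosomes and passed the test (sign-flip permutation p = 0.00161, adjusted p = 0.0113). Set 2 alone gave 4.68 points (sign-flip permutation, adjusted p = 0.00889). With set 1 alone the difference was 2.77 points (adjusted p = 0.0972), with windows of 20 Mb 2.45 points (adjusted p = 0.0693), and with the highest 20% of scores 3.19 points (adjusted p = 0.190), none of which passed the sign-flip permutation test. Width, covered length, median score percentile and both measures of agreement did not pass it either, with adjusted p from 0.552 to 0.872.

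Of the 10 windows of 1 Mb, the first had the highest covered length in both sets, the most bins shared by the sets and, in set 2, the highest share of strong zones. There, 13.9% of set 1 zones and 19.5% of set 2 zones were among the highest 10% of scores, and the zones covered 33.8% ± 5.27 (SD, n = 19) and 37.1% ± 4.95 of the length. Of the bins covered by either set in that stretch, 41.5% ± 11.3 were covered by both. From 1 to 10 Mb the shares of high-scoring zones were 11.4% ± 2.55 and 12.5% ± 3.01 as means over chromosomes, and 33.7% ± 4.23 of covered bins were shared. A zone opens the first 1 Mb by construction, and the values of that stretch were not tested. With it left out, the proximal minus interior difference in high-scoring zones was 2.04 points (sign-flip permutation, adjusted p = 0.0149). The next 10 Mb, from 10 to 20 Mb, had shares of 9.08% ± 3.11 in set 1 and 11.02% ± 3.16 in set 2, and the first 10 Mb exceeded them by 2.33 points (adjusted p = 0.0415, sign-flip permutation). The same stretch had covered lengths of 30.4% ± 4.44 and 31.0% ± 4.26. The first 10 Mb exceeded these by 2.12 points, which did not pass the test (sign-flip permutation, adjusted p = 0.0583).

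**Figure D3:**
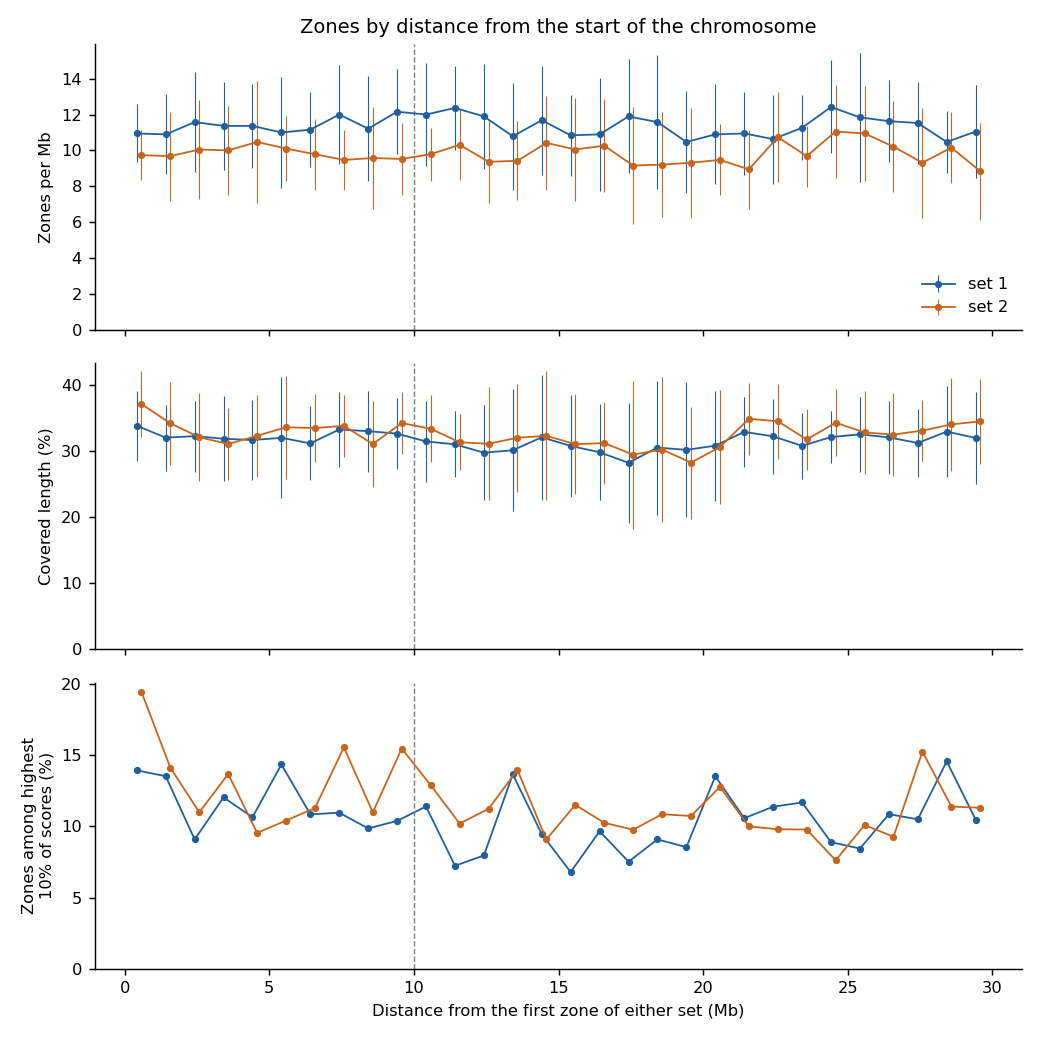
Values in windows of 1 Mb by distance from the first zone, for set 1 (blue) and set 2 (orange): zones per Mb and covered length as means over 19 chromosomes with SD bars, and the percentage of pooled zones among the highest 10% of scores. The dashed line marks 10 Mb; density stays level across it, and the share of high-scoring zones is highest for set 2 in the first window, at 19.5%.

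The sets agreed on proximal zones about as often as elsewhere. By an overlap of at least 1 bin, 1216 of 2160 members of set 1 (56.3%) met a zone of set 2, against 56.3% of all zones on chromosomes 1 to 19, and 1122 of 1870 members of set 2 (60.0%) met a zone of set 1, against 60.2%. As means over chromosomes, the share met was 56.5% ± 4.69 in set 1 and 60.2% ± 5.87 in set 2, and in the interior 56.3% ± 1.70 and 60.0% ± 2.07. The difference was 0.238 points (95% interval -2.20 to 2.67; sign-flip permutation p = 0.842, adjusted p = 0.872), and its sign changed with several settings. With at least 50% of both zones in common, 411 members of set 1 were met (19.03%, against 18.0% of all zones) and 410 of set 2 (21.9%, against 20.7%). Midpoints lay within 10 kb of a zone of the other set for 526 members of set 1 (24.4%, against 25.1%) and 528 of set 2 (28.2%, against 28.8%). Members among the highest 10% of scores met the other set at about the rate of such zones anywhere on chromosomes 1 to 19, 245 of 249 in set 1 (98.4%, against 98.8%) and 243 of 245 in set 2 (99.2%, against 99.3%). Members of 1 bin did so in 65 of 232 cases in set 1 (28.0%, against 26.9% of all zones of 1 bin) and 38 of 175 in set 2 (21.7%, against 26.2%).

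Counted by length, 32.0 Mb of the 190 Mb in the 19 proximal windows lay in zones of both sets, 29.5 Mb in zones of set 1 only, 31.2 Mb in zones of set 2 only and 97.4 Mb in neither. Bins covered by both made up 34.5% ± 3.86 (SD, n = 19) of the bins covered by either, against 33.5% ± 1.31 in the interior (difference 0.946 points, 95% interval -0.859 to 2.75; sign-flip permutation adjusted p = 0.499). Both sets covered the same bins 1.57 times as often as the product of their covered shares gives, and 1.56 times in the interior. The share ran from 26.8% on chromosome 8 over a median of 34.2% to 42.6% on chromosome 15.

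Chromosome 11 had the highest share of proximal zones met in both sets, and the lowest shares were those of chromosome 5 in set 1 and chromosome 2 in set 2. On chromosome 5, 47.6% of set 1 and 52.0% of set 2 members met the other set, while its interior had 58.6% and 64.9%. On chromosome 11 the proximal shares were 65.7% and 69.0% and the interior shares 59.5% and 61.6%. On chromosome 2 the proximal shares were 49.5% in set 1 and 45.5% in set 2, and the interior shares 55.1% and 60.8%.

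The sets often divided the same proximal window into zones differently, and the lists also differed in the interior. As means over chromosomes, the interior had 11.6 zones per Mb and 18.6 kb in set 1, and 10.1 and 22.7 kb in set 2. In the proximal window of chromosome 14, set 1 had 13.6 zones per Mb with a median width of 12 kb. Set 2 had 10.6 zones per Mb there with a median width of 22 kb. On chromosome 17 it was the reverse, with 10.3 zones per Mb and 30 kb in set 1 and 10.7 zones per Mb and 19 kb in set 2. Chromosome 4 also had wider zones in set 1, at 25.5 kb against 17.5 kb. Across the 19 chromosomes the proximal minus interior differences of the sets had a Pearson correlation of 0.159 for zone density, -0.389 for median width and -0.282 for median score percentile. For covered length it was 0.402 and for the share met 0.650, though the share met counts the same overlaps from both sides. These correlations describe 19 windows that share their sequence and libraries.

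**Figure D4:**
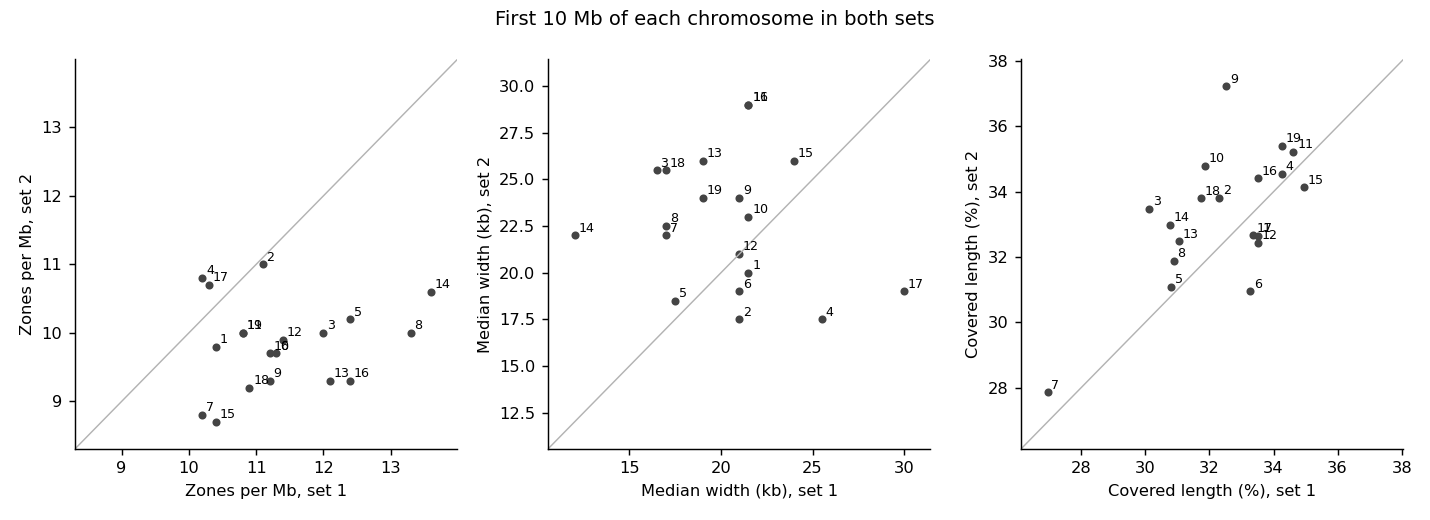
Each point is the first 10 Mb of the numbered chromosome, with set 1 on the x axis and set 2 on the y axis for zones per Mb, median width in kb and covered length in percent; the line marks equal values. Chromosome 7 is lowest in covered length in both sets. Chromosomes 14 and 17 have the lowest and highest median width in set 1 (12 kb and 30 kb), but not in set 2 (22 kb and 19 kb).

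Among the 1349 overlapping pairs of members, in 146 each partner belonged to the highest 10% of its set, or 10.8%, against 8.45% of all overlapping pairs on chromosomes 1 to 19. Per length this was 0.768 pairs per Mb, against 0.616 in the interior and 0.463 in the last 10 Mb; these rates rest on the same scores as the share of high-scoring zones and were not tested. Each of the 19 proximal windows held such a pair, from 1 pair on chromosome 7 and 2 on chromosome 8 to 12 each on chromosomes 4 and 9. Between the sets, the midpoints of such a pair lay a median of 13.5 kb apart. The pair with the best mean rank of score lay on chromosome 5, where set 1 listed 7735000 to 7815000 (score 163.1) and set 2 listed 7724000 to 7845000 (score 225.6, the highest of all set 2 members). It lies 4.66 Mb from the start of the window. The pair ranked after it, on chromosome 3, spanned 11244000 to 11304000 (set 1, score 146.5) and 11200000 to 11334000 (set 2, score 200.4). On chromosome 19 the zones at 12662000 to 12746000 (set 1, score 138.1) and 12681000 to 12844000 (set 2, score 200.01) followed, with midpoints 58.5 kb apart.

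Some strong pairs had nearly the same borders in both sets and others did not. On chromosome 6, the zone at 6821000 to 6923000 of set 1 and its partner in set 2, 6819000 to 6922000, had midpoints 1.5 kb apart, with scores of 130.3 and 204.5. On chromosome 14, the widest member of set 1, 192 kb at 6079000 to 6270000 (168.9), met a zone of 71 kb in set 2 at 6114000 to 6184000 (156.9). The widest member of set 2, 196 kb at 10950000 to 11145000 on chromosome 13 (196.8), met 3 zones of set 1. The remaining named pairs began in set 1 at 7034000 on chromosome 1, 12883000 and 3896000 on chromosome 5, 10257000 on chromosome 11 and 5084000 on chromosome 15. The last of these had the highest score of all set 1 members, at 183.5, and a score of 138.3 in set 2. The pair at 3896000 on chromosome 5 lay nearest the start, at 0.824 Mb. Chromosome 5 thus held 3 of the 10 named pairs, while its proximal window had the lowest share met in set 1.

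Among the 5 longest zone-free stretches, 3 lay on chromosome 7. The longest stretch without a zone of either set ran from 8555000 to 8987000 on chromosome 7 (433 kb). The next were 6364000 to 6696000 on chromosome 17 (333 kb), 7741000 to 8070000 on chromosome 7 (330 kb), 8072000 to 8376000 on chromosome 7 (305 kb) and 11670000 to 11970000 on chromosome 5 (301 kb). Only a single 1 kb bin, between 8070000 and 8072000, parted the stretches of 330 kb and 305 kb on chromosome 7. A length of 500 kb was reached by 12 interior stretches in 2022 Mb and by none of the proximal stretches in 190 Mb. The absence of such a proximal stretch depends on that bin. The counts of 500 kb stretches rest on unlike lengths and were not tested. Proximal stretches of 200 kb or more numbered 12, or 6.32 per 100 Mb, against 3.46 per 100 Mb in the interior and 2.11 in the last 10 Mb. Of these 12, 4 lay on chromosome 7. The 200 kb limit was chosen with results known and these rates were not tested. Chromosome 7 also had the lowest proximal minus interior difference in zone density (-1.30 zones per Mb) and in covered length (-3.33 points). Assembly gaps and mappability were not analysed here, and their part in the zone-free stretches was not tested.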

How the data were processed

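Alkali-cleaved genomic DNA fragments of 300 to 2000 bp were sequenced, per the labels' protocols. The submitters' processing notes name Bowtie2, without a version, and the build GRCm39. How zones were called was not given in the sources used here. The deposited positions are on a 1 kb grid, and a zone was taken to include the bin at its last position. The deposited score is a number per zone of unstated unit, used as a percentile within chromosomes 1 to 19 of its set.

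For each chromosome and set, 7 measures were taken in the first 10 Mb, the last 10 Mb and the interior. Density used midpoints and covered length used bins. Differences were averaged over the sets and tested by sign-flip permutation over 19 chromosomes (two-sided, 100000 resamples, threshold 0.05 after Benjamini-Hochberg adjustment over 14 comparisons). Some alternative settings were run for only part of the 14 comparisons. In their adjustment the comparisons not rerun kept the p-values of the main setting, so those adjusted p-values mix settings. The 95% intervals use the SD over chromosomes and Student's distribution. The test was also run on artificial lists, in which the zones and gaps of each chromosome were shuffled separately for each set. Such lists keep neither runs of similar scores nor the agreement of the sets, so the check does not cover these features. Named were the 10 overlapping proximal pairs with the best mean rank, the extreme members, the 5 longest zone-free intervals and the extreme chromosomes. Members, measures and named zones were chosen with earlier results of these data known. Genes and sequences at the zones were not analysed here. The software was Python 3.11.15 with NumPy 2.4.6, SciPy 1.17.1, pandas 2.3.3 and Matplotlib 3.10.9.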

Additional observations from a re-analysis of the deposited data

How the results depend on the processing

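The greater share of high-scoring zones kept its direction under every alternative run, and its call under all 19 omissions of a chromosome, at 2.29 to 2.73 points against the interior and 3.31 to 4.20 against the last 10 Mb. With either set left out the differences ran from 1.68 to 3.35 points and from 2.77 to 4.68 points, and set 1 alone lost both calls. Both were also lost with 20 Mb windows (1.07 and 2.45 points) and with the highest 20% of scores (2.36 and 3.19 points), the latter chosen after seeing the data; the cause was not tested. The other measures did not pass the test in the main setting. Width against the interior, and density and the share met against the last 10 Mb, kept their sign under all alternatives run; the others changed sign as follows. Against the interior, the share met turned to -0.215 points with 5 Mb windows, -0.715 with 20 Mb, -0.139 without the first 1 Mb, -0.407 with plain interval ends and -0.903 with midpoints within 10 kb, and ran from -0.137 to 0.92 when each chromosome was left out. Covered length turned to -0.725 points with 20 Mb windows. Against the next 10 Mb, density turned to 0.0184 zones per Mb and the median score percentile to -0.0222 points. Density turned to 0.00732 zones per Mb with scores at or above the median, and the shared share of covered bins to -0.318 points by the median over chromosomes. The mean score percentile passed the test, at 1.52 points, where the median did not. Against the last 10 Mb, 20 Mb windows gave -1.08 kb in width, -1.02 points in covered length and -0.227 points in shared bins. Without the first 1 Mb, an alternative added later, width was -0.118 kb and covered length -0.0831 points. With either set left out, width ran from -1.47 to 1.79 kb and the score percentile from -0.528 to 2.03 points; with each chromosome left out, width ran from -0.139 to 0.667 kb and covered length from -0.175 to 0.626 points. Depth per library is unknown, so its limit on these values was not measured. No paired analysis was possible because neither list separates parent from mutant libraries, so a replicate number had no groups to block; the pairing in the tests above is by chromosome.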

Other observations

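The X chromosome lies outside the rule and entered no test. Its first 10 Mb held 11.2 zones per Mb in set 1 and 10.1 in set 2, against 11.8 and 10.7 in its interior. Zones covered 24.9% and 28.6% of that window, against 27.7% and 30.2% of the X interior. The set 1 value lay below the 26.95% of chromosome 7, the lowest of the 19 autosomes. Zones among the highest 10% of autosomal scores made up 11.6% of the X window in set 1 and 7.92% in set 2, against 10.9% and 10.9% in the X interior. In the last 10 Mb of X the shares were 13.8% and 12.4%, above those of its first 10 Mb in both sets, unlike the autosomal means.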
